A study of Mus musculus with 12 samples.

Results

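Nuclear genes for the oxidative phosphorylation complexes were described across 12 RNA sequencing libraries of the mouse dentate gyrus. Members were the protein-coding genes whose symbol starts with Ndufa, Ndufb, Ndufc, Ndufs or Ndufv (not Ndufaf), Uqcr, Cox4 to Cox8 or Atp5, or is Sdha, Sdhb, Sdhc, Sdhd or Cyc1, with at least 10 counts over the 12 libraries. The rule gave 85 of the 52636 genes in the tables: 38 of complex I, 4 of complex II, 9 of complex III, 17 of complex IV and 17 of complex V. Of the 86 protein-coding genes with such a symbol, Cox8c fell outside with 0 counts, and the members nearest the minimum were Cox8b with 33 and Cox7b2 with 34 counts over the 12 libraries.

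Total RNA came from the dentate gyrus of C57BL/6 mice, the hippocampal region of granule neurons, in 4 groups of 3 libraries. The groups were Fst knockout (KO), wild type (WT), a group given an AAV9 vector that carries Fst behind an element named CB (Fst vector), and knockout mice given the same kind of vector with green fluorescent protein (GFP vector). The labels call the Fst vector group overexpressing and do not state its genotype, no age is stated, and the design text leaves unclear whether a library holds 1 mouse or a pool. KO and WT were deposited in a table of their own, and so were the vector groups, so each comparison was made within its table. Fst encodes follistatin, which is secreted and blocks activins by binding them.

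Oxidative phosphorylation takes place in the inner mitochondrial membrane, where complexes I to IV pass electrons from NADH and succinate to oxygen and complexes I, III and IV pump protons across the membrane. Complex V, the ATP synthase, lets the protons flow back and makes ATP. Most subunits are encoded in the nucleus and imported, while a small core of complexes I, III, IV and V is encoded by mitochondrial DNA. Neurons depend on this ATP to restore ion gradients after activity.

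Libraries held 8081824 to 11331337 counts. Fst had 2, 4 and 2 counts in KO libraries, against 34, 33 and 51 in WT libraries, and 2078, 1870 and 1497 in Fst vector libraries, against 0, 1 and 0 in GFP vector libraries. Prox1 and Calb1, which mark dentate granule neurons, stood at 226 to 457 and 67.8 to 243 CPM (counts scaled to the same total in each library) over all 12 libraries. For 4 of the KO and WT libraries (F1 and M2 of each) the sex in the title is not that of the description, and Xist and Ddx3y followed the title in all 12 libraries, so libraries carry their title names here. Ribosomal RNA made up 0.575 to 0.679% of counts in KO M2, WT F1, Fst vector M2, Fst vector F and GFP vector M2, and 0.00919 to 0.0211% in the 7 others. Fst vector M1 stood apart from the other vector libraries for most members, as described with the vector comparison, and results that rest on it are given with and without it.

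Windows of RefSeq promoters in GRCm38.p6, from 250 bases before to 50 after the annotated start, were at hand for 69 of the 85 members, 67 by symbol and 2 by an older symbol. Motifs known from oxidative phosphorylation promoters were searched as exact letters on both strands. The core site of NRF-1, a transcription factor of many respiratory chain genes, GCGCATGC, was found in 10 of 69 member windows (14.5%) and in 2.8% of all 27025 gene windows. The ETS site CCGGAAG, which GABP (also called NRF-2) binds, was found in 15 member windows (21.7%) and in 9.12% of all. The YY1 site AAGATGGC was found in 9 member windows (13%) and in 2.88% of all. At least 1 of the 3 was present in 29 member windows (42%), against 13.8% of all windows. The CRE letters TGACGTCA, also searched, were found in 5.8% of member windows and 1.88% of all. For the ERR letters AAGGTCA the shares were 11.6% and 4.66%. The TATA letters TATAAA were less frequent in member windows, at 10.1% against 14.2% of all. Member windows were also richer in G and C, with a median of 57.3% against 52.7%. A match describes letters in this window and does not show that a factor binds there.

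The 250 bases before the start are shown for 3 broadly expressed subunits that have NRF-1 or ETS letters in their window, followed by 3 subunits of complex IV with low levels here whose printed bases hold none of them. The genes were picked for this contrast, which does not hold over all members. Windows of the abundant members Atp5b, Sdha and Ndufa4 held none of the NRF-1, ETS or YY1 letters either. All printed bases are written 5′ to 3′ in the direction of the gene, and capitals mark the NRF-1 and ETS letters. In GRCm38.p6 they lie for Cox6a1 at chr5:115348959-115349208 on the minus strand, Atp5k at chr5:108434400-108434649 on the minus strand, Uqcr11 at chr10:80406822-80407071 on the minus strand, Cox6b2 at chr7:4753095-4753344 on the minus strand, Cox7a1 at chr7:30183921-30184170 on the plus strand and Cox8b at chr7:140900447-140900696 on the minus strand.
Cox6a1: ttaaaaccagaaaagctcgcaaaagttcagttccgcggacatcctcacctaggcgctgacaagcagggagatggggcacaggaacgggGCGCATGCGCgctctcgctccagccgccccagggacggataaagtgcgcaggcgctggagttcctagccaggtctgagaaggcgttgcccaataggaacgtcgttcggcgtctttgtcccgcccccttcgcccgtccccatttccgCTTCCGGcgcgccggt
Atp5k: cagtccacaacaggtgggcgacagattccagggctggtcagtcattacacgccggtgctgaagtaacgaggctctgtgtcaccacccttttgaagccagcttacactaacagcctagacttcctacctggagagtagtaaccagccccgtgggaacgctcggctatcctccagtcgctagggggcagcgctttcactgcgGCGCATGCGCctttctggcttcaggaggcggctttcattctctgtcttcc
Uqcr11: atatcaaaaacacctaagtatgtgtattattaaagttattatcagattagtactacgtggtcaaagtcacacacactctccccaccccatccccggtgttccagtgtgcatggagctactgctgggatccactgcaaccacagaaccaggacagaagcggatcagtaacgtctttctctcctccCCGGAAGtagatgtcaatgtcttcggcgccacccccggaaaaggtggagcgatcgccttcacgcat
Cox6b2: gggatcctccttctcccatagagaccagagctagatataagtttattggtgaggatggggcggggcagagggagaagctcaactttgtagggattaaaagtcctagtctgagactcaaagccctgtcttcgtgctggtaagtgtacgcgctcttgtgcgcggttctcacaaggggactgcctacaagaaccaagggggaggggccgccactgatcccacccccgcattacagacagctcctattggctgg
Cox7a1: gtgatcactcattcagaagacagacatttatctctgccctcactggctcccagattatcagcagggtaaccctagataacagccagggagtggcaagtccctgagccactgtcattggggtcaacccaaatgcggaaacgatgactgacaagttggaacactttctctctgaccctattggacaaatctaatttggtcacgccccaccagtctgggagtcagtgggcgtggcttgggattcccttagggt
Cox8b: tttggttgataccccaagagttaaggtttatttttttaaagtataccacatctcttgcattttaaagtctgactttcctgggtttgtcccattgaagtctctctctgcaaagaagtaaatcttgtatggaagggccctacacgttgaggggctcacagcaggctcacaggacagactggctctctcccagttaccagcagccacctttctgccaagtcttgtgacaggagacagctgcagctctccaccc
In Cox6a1 and Atp5k the NRF-1 letters read as a longer palindrome, so that the site occurs on both strands in overlap. Cox6a1 also holds the ETS letters on the opposite strand close to its start, and Uqcr11 holds them on the strand of the gene. The full windows of Atp5k and Uqcr11 also hold the ETS and the NRF-1 letters, in that order. Those matches lie in, or reach into, the bases after the start that are not printed.

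Levels between genes were compared per length, in TPM, counts divided by exon length and scaled to the same total in each library. Member genes were abundant, with a median of 204 TPM per gene over the 12 libraries, against 17.6 TPM for protein-coding genes with at least 10 counts. Among members, 62 averaged 100 TPM or more and 10 averaged under 20 TPM. Of all member TPM, complex I took 32.6%, complex II 3.33%, complex III 11%, complex IV 32.6% and complex V 20.5%. Among the 75 members of at least 20 TPM, the coefficient of variation over the 12 libraries had a median of 10.7%.

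Some members share exon sequence with a gene on the opposite strand, among them Ndufb6 with Smim27 over 39.0% of its exon length, Ndufa13 with Tssk6 over 30.0%, Uqcrc2 with Pdzd9 over 19.8%, Cox5a with Gm26631 over 12.8%, Atp5j with Gabpa over 12.7% and Cox4i1 with Emc8 over 9.94%. No source used here states whether counting used strand, so reads of such partners cannot be told apart. Smim27, Tssk6, Pdzd9 and Gm26631 held 24, 77, 69 and 112 counts over the 12 libraries. Partners with more counts than the member were Rbm10, with 13397 counts against 8948 for Ndufb11, Cbarp, with 27693 against 17144 for Atp5d, Braf, with 16339 against 2294 for Ndufb2, and Shmt2, with 3456 against 197 for Ndufa4l2. These share 12.9%, 3.53%, 2.59% and 2.92% of the member's exon length in that order. Several members also have processed pseudogenes in the tables, for example of Atp5k, Atp5l and Uqcrh, and how reads that match both were counted is not stated either. The pseudogenes of Atp5k and Uqcrh held 0 counts over the 12 libraries and those of Atp5l 0 or 1, while the pseudogene Ndufb4c held 177.

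**Figure D1:**
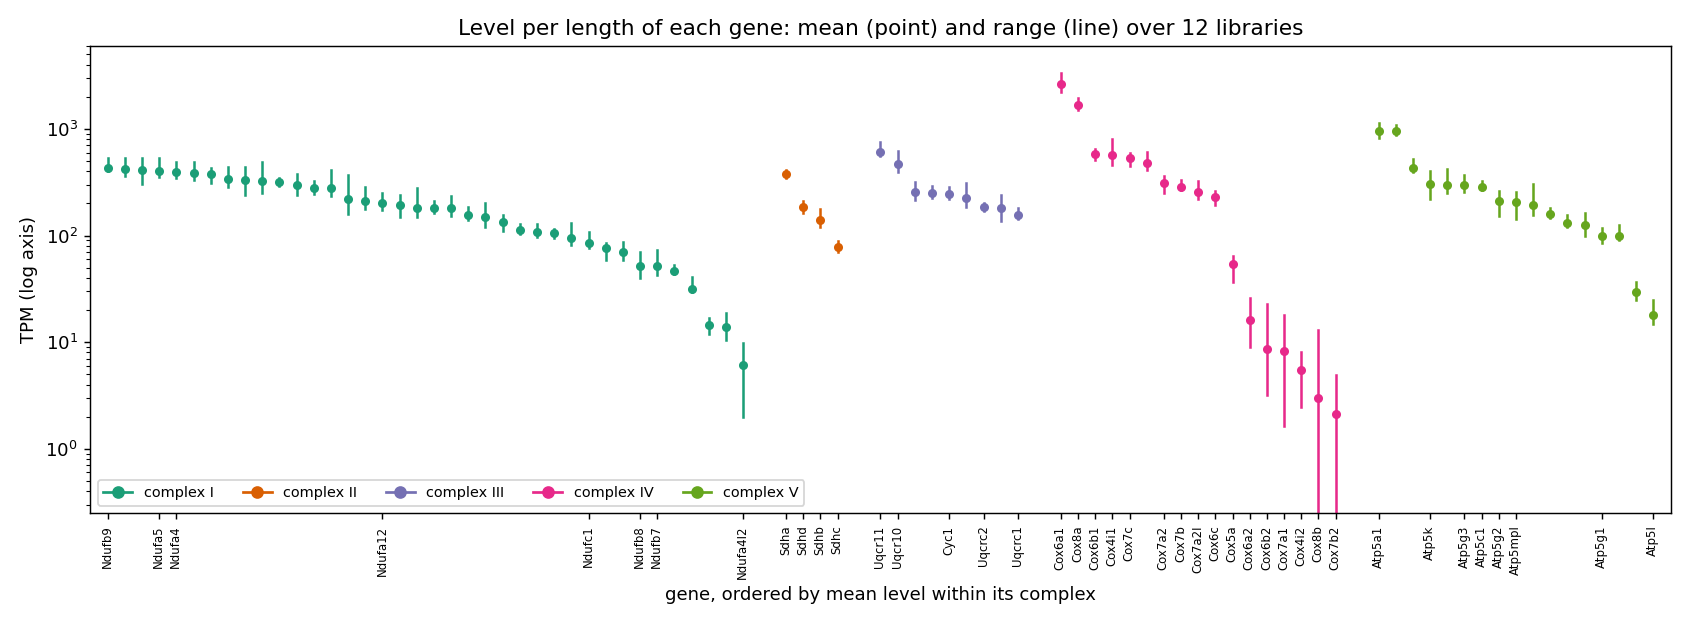
TPM of each of the 85 genes on a log axis, grouped by complex and ordered by mean level, with names under the genes chosen by the rule for named genes; points are means and lines the range over the 12 libraries, and a line that meets the bottom of the axis includes a library at 0. Of the genes, 62 average 100 TPM or more, Cox6a1 and Cox8a are highest, and Cox7b2 and Cox8b are lowest.

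In complex I, which oxidises NADH, mean levels ran from 433 TPM for Ndufb9, an accessory subunit, to 6.10 TPM for Ndufa4l2, a paralogue of Ndufa4. In complex II, succinate dehydrogenase, the flavoprotein gene Sdha averaged 380 TPM and the membrane anchor gene Sdhc 78.8 TPM. Sdha also had the smallest coefficient of variation among the members, at 4.56%.

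In complex III, which passes electrons to cytochrome c, Uqcr11 was highest at 610 TPM and the core protein gene Uqcrc1 lowest at 156 TPM. In complex V the main subunits of the F1 head, which makes ATP, were highest, with 960 TPM for Atp5a1 (alpha) and 959 TPM for Atp5b (beta). The other F1 subunits averaged 283 TPM for Atp5c1 (gamma), 301 TPM for Atp5d (delta) and 194 TPM for Atp5e (epsilon). These were below the highest complex V member outside F1, which averaged 433 TPM. Lowest per length in complex V was Atp5l (subunit g) at 18.0 TPM, which was 14.2 TPM by the length of the longest transcript. This rank depends on its annotated length. In CPM, Atp5l had group means of 24.25 to 36.5, above those of Atp5s at 14.0 to 16.4. The 3 genes for the same c-ring subunit contributed unequally, with median shares of their summed TPM of 16.8% for Atp5g1, 34.3% for Atp5g2 and 49.2% for Atp5g3.

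Complex IV, cytochrome c oxidase, held both the highest and the lowest members. Cox6a1 averaged 2650 TPM and Cox8a 1674 TPM, while Cox7b2 averaged 2.10 TPM and Cox8b 3.02 TPM. In each pair of paralogous subunits the isoform known for restricted tissues gave a small share of the pair's TPM. Cox4i2, known from the lung, gave 0.362 to 1.55% of Cox4i1 and Cox4i2 together. Cox6a2, the heart and muscle isoform, gave 0.329 to 1.03% of its pair with Cox6a1. Cox7a1, also of heart and muscle, gave 0.526 to 5.35% of its pair with Cox7a2, the highest share being in KO F1. Cox6b2, the testis isoform, gave 0.545 to 3.4% of its pair with Cox6b1, the highest share being in Fst vector M1. Cox8b, of heart and muscle, gave 0 to 0.659% of its pair with Cox8a, Cox7b2 gave 0 to 1.75% of its pair with Cox7b, and Ndufa4l2 gave 0.552 to 2.42% of its pair with Ndufa4. The other broadly expressed genes of these families averaged 573 TPM for Cox4i1, 312 TPM for Cox7a2, 254 TPM for Cox7a2l, 231 TPM for Cox6c and 283 TPM for Cox7b. Of the striated muscle markers, Ckm (muscle creatine kinase) was at 0 in 8 libraries and at most 0.315 CPM in the others. Tnnt3 was at 0 in 7 libraries, Myh4 in 6 and Myh1 in 1, with at most 0.191, 0.43 and 0.322 CPM. Actn3 stood at 0.321 to 1.42 CPM and Acta1 at 4.06 to 9.33 CPM.

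The comparison of KO with WT asks which of these genes differ when follistatin is lost. None of the members passed. Of the 14919 genes tested with edgeR's quasi-likelihood test and Benjamini-Hochberg adjustment, 0.0268% had an adjusted p under 0.05, and of the 82 members tested 0 did, with DESeq2 also calling 0. At unadjusted p under 0.05, 8 members were higher in KO (9.76% of members, against 2.95% of all genes) and 0 were lower (against 3.01% of all genes). Log2 changes were small, between -0.44 and 0.26, and 58 of 82 lay within 0.1 of 0 with a median SE of 0.07. They were above 0 for 51 members (62.2%, against 49.7% of all genes), with a median of 0.025 for members and -0.001 for all genes tested. Scaled by library totals, 44 members (53.7%) were above 0, against 43.7% of all genes, and the median was 0.008.

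Libraries of KO and WT did not overlap for 12 members that were higher in all KO libraries (14.6%, against 3.98% of all genes) and 5 that were lower in all (6.1%, against 7.04% of all genes). The 12 higher ones were Ndufa4, Ndufa6, Ndufa12, Uqcr10, Uqcrq, Cox6b1, Cox6c, Cox7c, Atp5j, Atp5k, Atp5l and Atp5mpl. The 5 lower ones were Ndufa10, Ndufc1, Ndufs4, Sdhd and Atp5c1. These are bulk samples, in which a change in the number of cells of a type and a change in RNA per cell cannot be told apart. Summed over the 6 neuronal markers, CPM were 3109 to 3204 in KO and 3041 to 3140 in WT, and summed over the 6 astrocyte markers 1304 to 1384 in KO and 1372 to 1426 in WT. The part of these differences in the members' values was not tested.

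**Figure D2:**
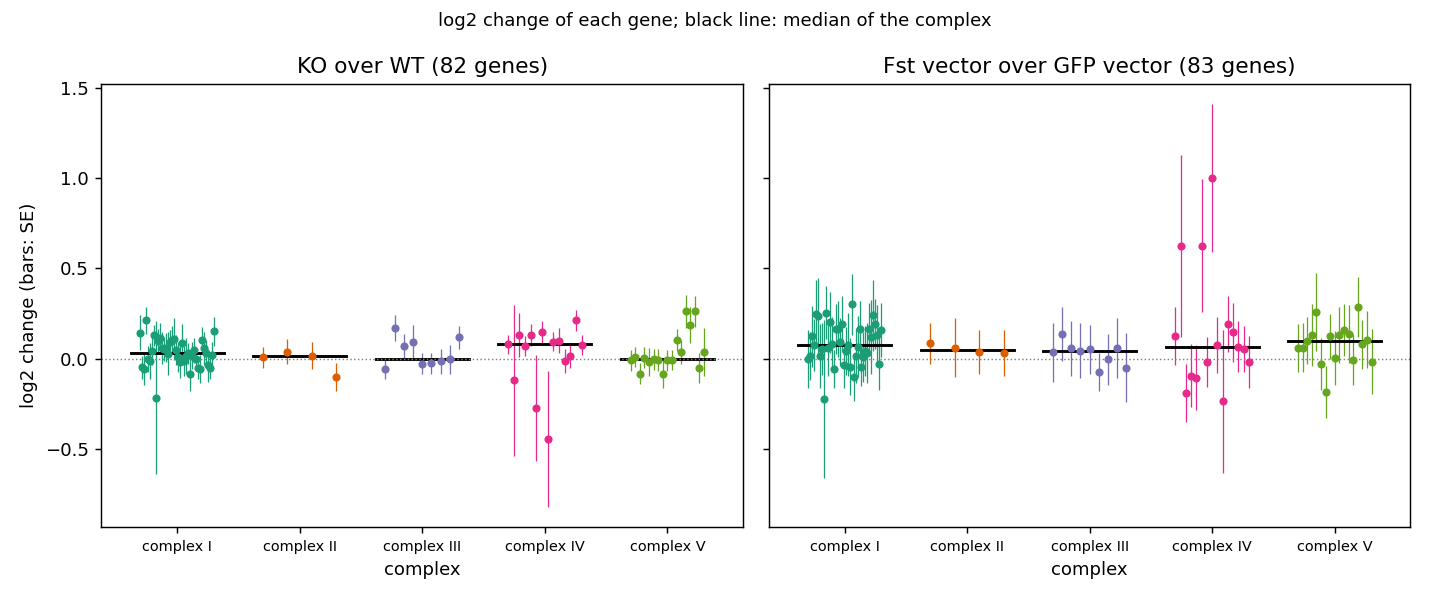
Log2 change with its SE of each tested gene, by complex, for KO over WT (82 genes, left) and Fst vector over GFP vector (83 genes, right); black lines are the medians of the complexes. On the left 58 of 82 genes lie within 0.1 of 0 and on the right 47 of 83, and the farthest point in each panel is Cox6b2, at -0.44 and 1.0.

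In complex I, 26 of 38 members were above 0 in KO against WT, with a median log2 change of 0.03. Ndufa12, an accessory subunit, had 74.3, 87.7 and 77.0 CPM in KO M1, F1 and M2, against 74.1, 68.4 and 66.2 CPM in WT M1, F1 and M2. Its KO libraries lay above all WT libraries, though KO M1 by only a small margin over WT M1, and the log2 change was 0.21 ± 0.07 (SE, edgeR quasi-likelihood, adjusted p = 0.670). Ndufa4, now also assigned to complex IV, had 131, 124 and 133 CPM in KO, against 116, 122 and 120 CPM in WT, again without overlap, and a log2 change of 0.13 ± 0.06 (adjusted p = 0.802, edgeR quasi-likelihood). Among the members of complex I below 0 the smallest p belonged to Ndufc1, with 28.4 ± 0.80 CPM in KO and 30.5 ± 1.1 CPM in WT (SD, n = 3 each) and a log2 change of -0.08 ± 0.09.

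The 4 members of complex II had log2 changes between -0.10 and 0.04 in KO against WT. Sdhd, a membrane anchor, had 51.8, 51.9 and 50.4 CPM in KO, against 59.0, 52.7 and 55.5 CPM in WT. Every KO library lay below every WT library, but the log2 change of -0.10 ± 0.08 did not pass (adjusted p = 0.935, edgeR quasi-likelihood). In complex III, 4 of 9 members were above 0. Uqcr10, a small subunit, had 62.6, 63.3 and 66.2 CPM in KO, against 57.9, 59.0 and 56.0 CPM in WT. The groups did not overlap, with a log2 change of 0.17 ± 0.07 (adjusted p = 0.792, edgeR quasi-likelihood). Cyc1, which encodes cytochrome c1, had 126 ± 7.22 CPM in KO and 132 ± 3.67 CPM in WT (SD, n = 3 each), with a log2 change of -0.05 ± 0.06.

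Complex IV had the highest median of the complexes in KO against WT, 0.08 on the log2 scale, with 10 of 14 tested members above 0. Its members summed to 1796 ± 31.2 CPM in KO and 1693 ± 52.6 CPM in WT (SD, n = 3 each), while all members summed to 8583 ± 85 CPM in KO and 8466 ± 277 CPM in WT. By library (M1, F1 and M2), all members summed to 8520, 8548 and 8680 CPM in KO and 8750, 8197 and 8452 CPM in WT. WT M1 thus lay above every KO library, and WT F1 and M2 lay below them. The members' median log2 deviation from the other libraries was 0.029 in WT M1, -0.046 in WT F1 and -0.030 in WT M2. In KO libraries it was 0.018 to 0.034. Cox7c, a small subunit (chromosome 13, 86044816 to 86046904, minus strand), had 145, 153 and 156 CPM in KO M1, F1 and M2, against 134, 125 and 138 CPM in WT M1, F1 and M2. All KO libraries were above all WT libraries. Its log2 change of 0.21 ± 0.06 had the smallest p of the members (adjusted p = 0.291, edgeR quasi-likelihood), and over the alternatives the change ran from 0.18 to 0.25 and the adjusted p from 0.117 to 1. Cox6b1, which bridges the monomers of the complex, had 106, 99.8 and 101 CPM in KO, against 96.2, 92.3 and 91.7 CPM in WT, without overlap and with a log2 change of 0.15 ± 0.06. Cox6a1 had 411, 469 and 438 CPM in KO, against 432, 379 and 405 CPM in WT, so that its groups overlapped (log2 change 0.13 ± 0.06, edgeR quasi-likelihood, adjusted p = 0.821).

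Cox7a1, the heart and muscle isoform (chromosome 7, 30184144 to 30186078, plus strand), was too low in KO and WT for the filter on low counts. It had 1.07, 2.36 and 0.813 CPM in KO M1, F1 and M2, against 0.315, 0.215 and 0.530 CPM in WT M1, F1 and M2, from 40 counts in KO and 11 in WT. The lowest KO library stood above the highest WT library, and KO F1 stood well above the other KO libraries. The 6 striated muscle markers summed to 6.53 to 8.94 CPM in KO and 5.03 to 6.82 CPM in WT, and their part in this value was not tested. In the fit of all genes with at least 10 counts, its log2 change was 1.94 ± 0.55 (adjusted p = 0.216, edgeR quasi-likelihood). Its annotated start lies inside the printed upstream window taken from RefSeq, which places the start further downstream.

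In complex V, 8 of 17 members were above 0 in KO against WT, and the median was -0.003. Atp5mpl, a small proteolipid of the membrane part (chromosome 12, 111961375 to 111966977, minus strand), had 59.1, 56.5 and 61.1 CPM in KO, against 53.8, 42.3 and 52.8 CPM in WT. WT F1 was the lowest of the 6 libraries, and the groups did not overlap. The log2 change was 0.26 ± 0.09 (adjusted p = 0.567, edgeR quasi-likelihood). Atp5k, which encodes subunit e (chromosome 5, 108433244 to 108434448, minus strand), had 43.4, 40.4 and 35.8 CPM in KO, against 32.9, 33.4 and 34.5 CPM in WT. The groups did not overlap, the WT libraries lay close together, and the log2 change was 0.26 ± 0.09 (adjusted p = 0.670, edgeR quasi-likelihood). As for Cox7a1, the annotated start of Atp5k lies inside its printed upstream window from RefSeq. Atp5c1, the gamma subunit that turns inside the F1 head, had 126, 124 and 128 CPM in KO, against 144, 132 and 130 CPM in WT, with a log2 change of -0.08 ± 0.06 (adjusted p = 0.934, edgeR quasi-likelihood). Atp5g2, a gene of the c ring, had 72.3, 79.4 and 64.1 CPM in KO, against 83.5, 71.2 and 76.7 CPM in WT, with overlap (log2 change -0.08 ± 0.08).

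**Figure D3:**
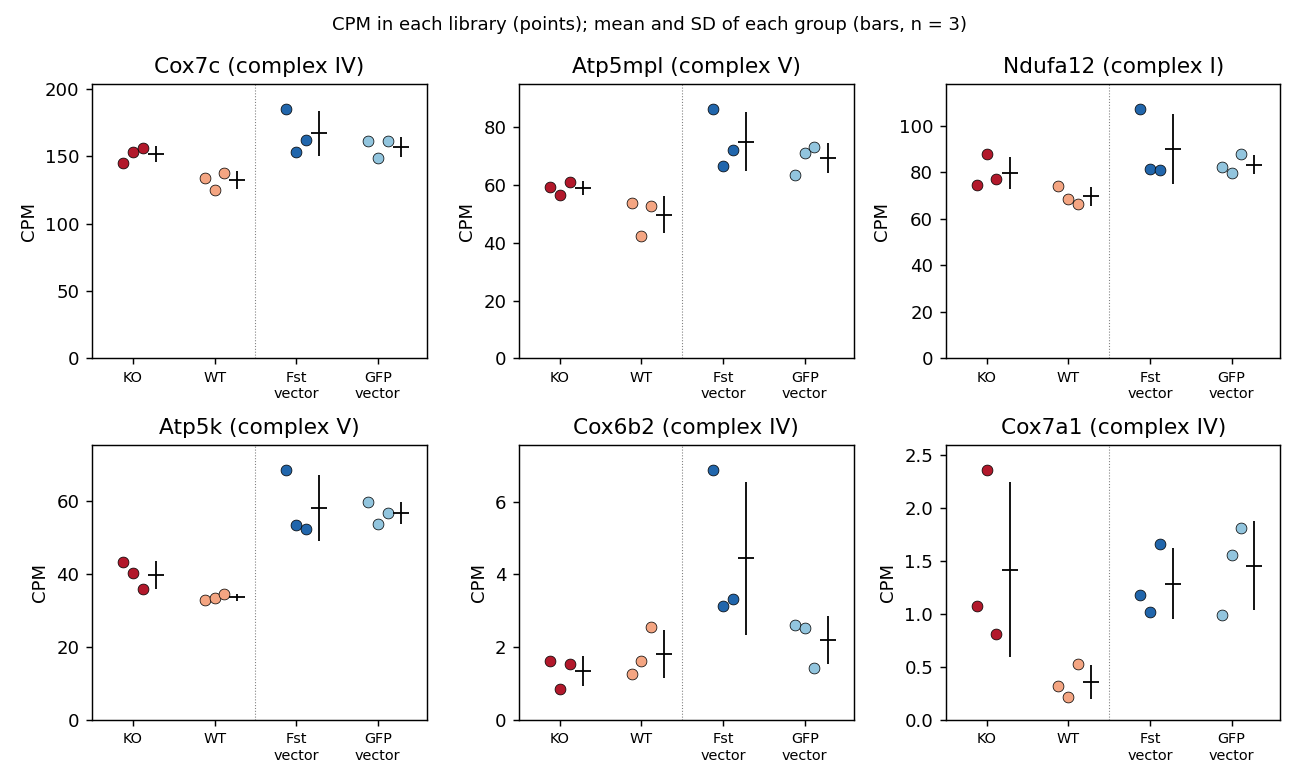
CPM of 6 genes in every library (points) with the mean and SD of each group (bars, n = 3), KO and WT left of the dotted line and the vector groups right of it. For Cox7c, Atp5mpl, Ndufa12, Atp5k and Cox7a1 the KO points lie above the WT points, and in the vector groups the highest point of Cox6b2 is Fst vector M1 at 6.87 CPM.

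The vector comparison asks which of these genes differ between mice given Fst and mice given GFP. None of the members passed here either. Of 15034 genes tested with edgeR's quasi-likelihood test, 0.0798% had an adjusted p under 0.05, and of the 83 members tested 0 did, with DESeq2 also calling 0. At unadjusted p under 0.05, 1 member was higher with the Fst vector (1.2%, against 4.34% of all genes) and 0 were lower (against 5.16% of all genes). Log2 changes lay above 0 for 63 members (75.9%, against 51% of all genes), with a median of 0.06 for members and 0.01 for all genes. Scaled by library totals, 71 members (85.5%, against 56.9% of all genes) lay above 0, with a median of 0.097 for members and 0.04 for all genes. The groups' libraries did not overlap for 6 members, all higher with the Fst vector (7.23%, against 10.5% of all genes), and 0 were lower in all (against 6.01% of all genes). SEs were larger than in KO against WT, with a median of 0.15. With the shared library names M1, M2 and F as a replicate block, 150 genes in all and 0 members passed the adjustment, and 2 members were higher at unadjusted p under 0.05. The share of all genes at that unadjusted threshold is not given for this fit. Above 0 were 31 of 38 members of complex I, all 4 of complex II, 6 of 9 of complex III, 9 of 15 tested of complex IV and 13 of 17 of complex V. These numbers without Fst vector M1 were 11, 1, 0, 4 and 3.

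This excess above 0 rested on 1 library. Summed over the 85 members, Fst vector M1, M2 and F had 12226, 9322 and 9762 CPM, against 9979, 9583 and 9800 CPM in GFP vector M1, M2 and F. Fst vector M1 was thus the highest of the 6, and the other Fst vector libraries lay within or below the range of the GFP vector. It was the highest of the 6 vector libraries for 72 of 83 members (86.7%), against 24.8% of all genes. Against the mean of the 5 others, the members' median log2 deviation was 0.37 in Fst vector M1, -0.16 in Fst vector M2 and -0.09 in Fst vector F, and between -0.078 and -0.002 in the GFP vector libraries. Fst vector M1 is part of that mean for the other libraries and lowers their deviations. Against the mean of all 12 libraries, in CPM, the medians were 0.44, 0.004 and 0.08 in Fst vector M1, M2 and F. The GFP vector libraries then had 0.04 to 0.10. The median of all genes in Fst vector M1 was 0.01. Without Fst vector M1, 19 of 83 members lay above 0 (22.9%, against 48.8% of all genes) with a median of -0.07, and 0 passed the adjustment. At unadjusted p under 0.05, 0 members were then higher (against 3.45% of all genes) and 5 were lower (6.02%, against 4.25% of all genes): Atp5g1, Cox5a, Cox5b, Cox6a1 and Uqcrq. The library was left out after it was seen to be high for most members, which by itself moves these changes down.

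**Figure D4:**
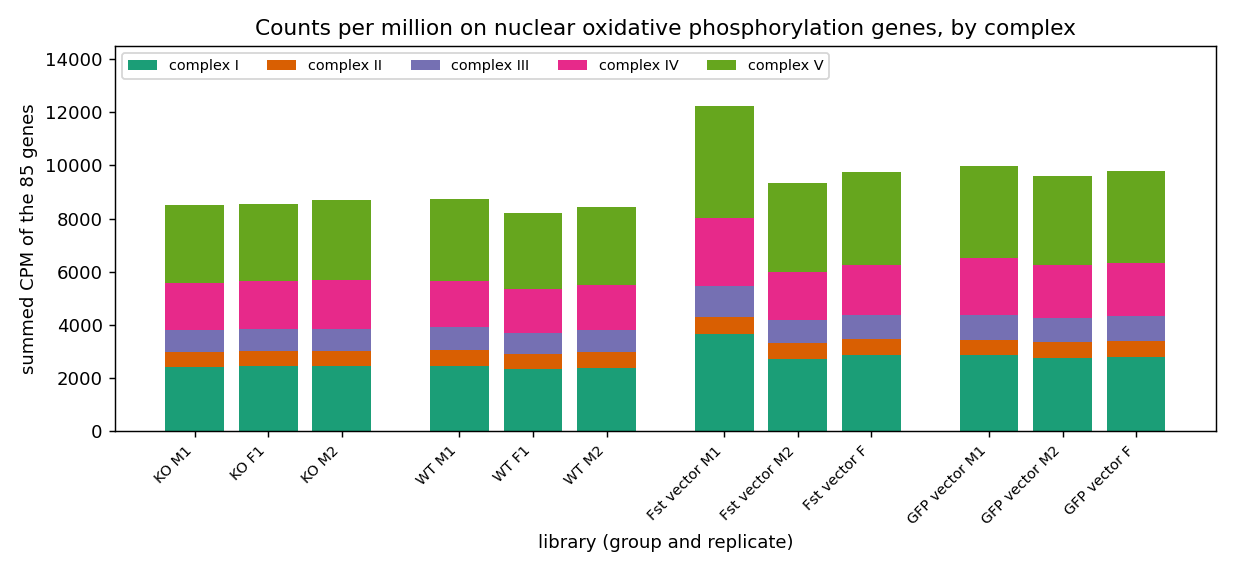
Summed CPM of the 85 genes in each library, stacked by complex; KO and WT on the left, the vector groups on the right. Fst vector M1 reaches 12226 CPM, and the other vector libraries lie between 9322 and 9979 CPM.

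Each complex took part in the higher levels of Fst vector M1. The median log2 deviation of its members there was 0.38 for complex I, 0.23 for complex II, 0.37 for complex III, 0.38 for complex IV and 0.32 for complex V. Cox6b2 deviated most, by 1.29, followed by Atp5e at 0.74, Ndufa2 at 0.73, Cox4i2 at 0.73 and Ndufs7 at 0.68. Members not highest there were Atp5g1, Atp5s, Cox6a2, Cox7a1, Ndufa4l2, Ndufa9, Ndufb2, Ndufb6, Ndufb8, Ndufs1 and Uqcrc2. The same library was also high for ribosomal protein genes, a list taken up after the values were seen: its median deviation was 0.57 for 75 cytosolic and 0.35 for 77 mitochondrial ribosomal protein genes. The 12 mitochondrially encoded subunits had a median deviation of 0.04 there, assembly factors of 0.12 and glycolysis genes of 0.22. Glycolysis genes summed to 12524 CPM in Fst vector M1, against 9995 to 10784 CPM in the other vector libraries. Blood markers summed to 91.6 CPM in Fst vector M1, against 42.9 to 69.6 CPM in the other vector libraries. Across all genes, the deviation of Fst vector M1 had r = -0.27 with the log10 of exon length, against -0.005 to 0.084 in the other vector libraries, a description over genes that share a library. The part of these values in the members' levels was not tested.

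**Figure D5:**
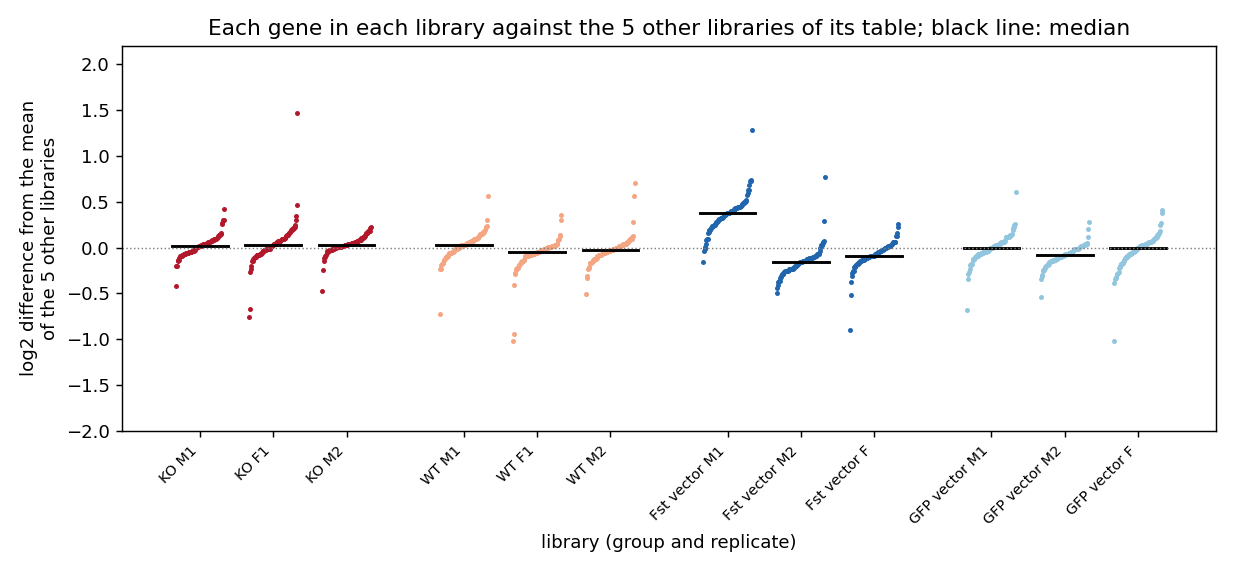
Log2 difference of each gene of 1 CPM or more in each library from the mean of the 5 other libraries of its table, sorted within the library; black lines are medians. Nearly all points of Fst vector M1 lie above 0 (median 0.37), and those of Fst vector M2 and F lie mostly below 0, set against a mean that includes Fst vector M1.

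Within the libraries of low ribosomal RNA share, Fst vector M1 stood against GFP vector M1 and F, and 79 of 83 members were higher in it, by a median of 0.31 on the log2 scale. Within those of high share, Fst vector M2 and F stood against GFP vector M2, and 29 of 83 were higher, with a median of -0.04. For KO and WT the same split gave a median of 0.06 with 64 of 83 members higher in the pair of high share, KO M2 and WT F1, and 0.01 with 44 of 83 higher in the 4 libraries of low share. These within-split values were not tested, and the split was chosen after the data were seen.

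Cox6b2, the testis isoform of a complex IV subunit (chromosome 7, 4751792 to 4753094, minus strand), had the smallest p among members with the Fst vector. It had 6.87, 3.14 and 3.32 CPM in Fst vector M1, M2 and F, against 2.60, 2.53 and 1.43 CPM in GFP vector M1, M2 and F. All Fst vector libraries lay above all GFP vector libraries, and M1 was far above the others. The log2 change was 1.0 ± 0.41 (adjusted p = 0.504, edgeR quasi-likelihood). Without Fst vector M1 it was 0.52, and over the alternatives the adjusted p ran from 0.203 to 0.815. In the other table Cox6b2 had 1.61, 0.857 and 1.52 CPM in KO, against 1.26, 1.61 and 2.56 CPM in WT, with overlap (log2 change -0.44 ± 0.38).

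Other members with small p above 0 in the vector comparison were the complex I subunits Ndufb7 and Ndufa5 and the complex V subunit Atp5l. Ndufb7 had 90.5, 63.0 and 63.8 CPM with the Fst vector, against 62.6, 53.5 and 56.1 CPM with the GFP vector, a log2 change of 0.30 ± 0.17 (adjusted p = 0.645, edgeR quasi-likelihood). Ndufa5 had 153, 119 and 110 CPM with the Fst vector, against 109, 105 and 99.5 CPM with the GFP vector, a log2 change of 0.25 ± 0.15. Atp5l had 43.6, 32.1 and 33.8 CPM with the Fst vector, against 30.9, 31.2 and 25.6 CPM with the GFP vector, a log2 change of 0.29 ± 0.17. In all 3 the groups did not overlap, M1 was the highest Fst vector library, and the lower Fst vector libraries lay close to the GFP vector ones. With that library left out the log2 change was 0.10 ± 0.11 for Ndufb7, 0.09 ± 0.10 for Ndufa5 and 0.13 ± 0.14 for Atp5l. Cox6a2, the heart and muscle isoform, had 3.93, 4.56 and 1.88 CPM with the Fst vector, against 2.23, 2.24 and 2.10 CPM with the GFP vector. Its Fst vector libraries lay on both sides of the GFP vector ones (log2 change 0.63 ± 0.37, and 0.51 ± 0.42 without Fst vector M1).

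Among members below 0, Atp5g1, a gene of the c ring, had 140, 109 and 115 CPM with the Fst vector, against 136, 121 and 147 CPM with the GFP vector, a log2 change of -0.18 ± 0.14 (adjusted p = 0.744, edgeR quasi-likelihood). Cox5a had 35.4, 25.4 and 29.4 CPM with the Fst vector, against 34.6, 31.8 and 34.2 CPM with the GFP vector, a log2 change of -0.19 ± 0.16. Both overlapped between the groups, with Fst vector M2 and F below all GFP vector libraries. Their log2 changes without Fst vector M1 were -0.31 ± 0.12 for Atp5g1 and -0.33 ± 0.13 for Cox5a (adjusted p = 0.616 and 0.627, edgeR quasi-likelihood), and neither passed. Sdha had the smallest p of complex II above 0 and stood at 418, 411 and 407 CPM with the Fst vector, against 366, 399 and 372 CPM with the GFP vector, without overlap and with a log2 change of 0.09 ± 0.11, and 0.07 ± 0.10 without Fst vector M1. Ndufb8, an accessory subunit of complex I, had 51.6, 47.0 and 45.5 CPM with the Fst vector, against 55.8, 50.1 and 44.7 CPM with the GFP vector, with overlap (log2 change -0.10 ± 0.13, and -0.16 ± 0.13 without Fst vector M1). Uqcr10 was 0.14 ± 0.15 on the log2 scale and -0.03 without Fst vector M1. In Uqcrc2, a core protein of complex III, the values lay close together, 119, 115 and 117 CPM with the Fst vector, against 119, 117 and 124 CPM with the GFP vector.

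The muscle isoform Cox8b was seen mainly in Fst vector M1, with 1.28 CPM there, 0.203 CPM in Fst vector M2 and 0.221 CPM in Fst vector F, against 0.124, 0.0974 and 0 CPM in GFP vector M1, M2 and F. In counts this was 17 in the Fst vector group and 2 in the GFP vector group, too few for the filter. Outside Fst vector M1 its level was at most 0.428 CPM, in KO F1, near the 0.265 to 0.371 CPM that 3 counts are worth in these libraries. In the fit of all genes with at least 10 counts the vector comparison gave a log2 change of 2.80 ± 1.14 (adjusted p = 0.556, edgeR quasi-likelihood).

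Astrocyte and oligodendrocyte markers varied between the vector libraries. The 6 astrocyte markers summed to 1540 to 2034 CPM with the Fst vector, against 1386 to 5938 CPM with the GFP vector, the highest value being GFP vector F, where Gfap made up most of it. The 6 oligodendrocyte markers summed to 1504 to 1800 CPM with the Fst vector, against 1127 to 1306 CPM with the GFP vector, without overlap. In Fst vector M1 itself the neuronal markers stood at 2779 CPM and the astrocyte markers at 1540 CPM, both inside the range of the other vector libraries. The part of cell types in the members' values was not tested.

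The difference of the effects, the Fst vector change over GFP vector minus the KO change over WT, was tested by fitting the 12 libraries together. Of 15632 genes 0.281% passed the adjustment, and of 83 members 0 did. At unadjusted p under 0.05, 1 member was higher, Cox6b2 (1.2%, against 4.31% of all genes), and 1 was lower, Cox7a1 (1.2%, against 5.65% of all genes). Cox7a1 differed by -2.19 ± 0.70 (adjusted p = 0.259, edgeR quasi-likelihood). It had 1.18, 1.01 and 1.66 CPM with the Fst vector, against 0.990, 1.56 and 1.81 CPM with the GFP vector, with overlap. Cox6b2 differed by 1.43 ± 0.58 (adjusted p = 0.406, edgeR quasi-likelihood). These differences were -2.14 ± 0.76 for Cox7a1 and 0.96 ± 0.54 for Cox6b2 without Fst vector M1. The median over members was 0.04, with 50 above 0. Scaled by library totals, the median was 0.10 with 62 of 83 above 0 (74.7%, against 58.1% of all genes), and the median of all genes was 0.06. Without Fst vector M1 the members' median was -0.10 with 13 of 83 above 0, and at unadjusted p under 0.05 there were 14 lower members (16.9%, against 6.03% of all genes) and 0 higher ones (against 4.65% of all genes). The smallest p among these 14 was that of Uqcrq at -0.44 ± 0.11 (adjusted p = 0.127, edgeR quasi-likelihood), so none passed there. Fst vector M1 was high for most members, so leaving it out by itself moves these differences down.

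In the vector comparison Cox7c, Atp5mpl, Ndufa12 and Atp5k had log2 changes of 0.05 ± 0.13, 0.08 ± 0.14, 0.08 ± 0.14 and -0.0045 ± 0.14 in that order, and of -0.04 ± 0.10, -0.04 ± 0.11, -0.08 ± 0.10 and -0.15 ± 0.10 without Fst vector M1. All 4 were among the 14 members lower at unadjusted p under 0.05 in the difference of the effects without that library, at -0.26 ± 0.10, -0.32 ± 0.14, -0.30 ± 0.13 and -0.42 ± 0.13 (adjusted p = 0.394, 0.455, 0.412 and 0.245, edgeR quasi-likelihood), and none of them passed. The 4 were named for being higher in KO, a change that enters this difference with a minus sign. Fst vector M1 was also left out after its high values were seen, so their lower sign is not a separate result. Atp5k had 68.5, 53.4 and 52.3 CPM with the Fst vector, against 59.9, 53.9 and 56.9 CPM with the GFP vector. Its levels in all 6 vector libraries exceeded those in all 6 KO and WT libraries. Such a separation by table held for 25 of the 85 members (29.4%), all higher in the vector table, and for 5.24% of the genes with at least 10 counts. GFP vector mice carry the same Fst knockout as KO mice, but effects of a vector and of the separate tables cannot be told apart here.

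The other genes of the pathway gave no call in either comparison. Among the 12 tested mitochondrially encoded subunits, 6 were above 0 in KO against WT and 7 in the vector comparison, with medians of -0.01 and 0.05. The number in the vector comparison was again 7 without Fst vector M1, with a median of 0.03. In Fst vector M1 these transcripts made up 2.48% of counts, against 2.34 to 2.73% in the other vector libraries. Among the assembly factors, which build the complexes without staying in them, 19 of 42 were above 0 in KO against WT with a median of -0.01. In the vector comparison 26 of 43 were above 0 with a median of 0.09, and without Fst vector M1 22 of 43 were, with a median of 0.003. Cox18, an insertase for a mitochondrially encoded subunit of complex IV, had 14.6 ± 0.87 CPM in KO and 17.7 ± 0.92 CPM in WT (SD, n = 3 each), a log2 change of -0.26 ± 0.12 (adjusted p = 0.837, edgeR quasi-likelihood). Coa3, an assembly factor of complex IV, had 80.5 ± 12.8 CPM with the Fst vector and 61.8 ± 2.13 CPM with the GFP vector, a log2 change of 0.35 ± 0.14 (adjusted p = 0.482, edgeR quasi-likelihood), and 0.20 ± 0.09 without Fst vector M1.

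Of the 19 transcriptional regulators of mitochondrial genes, 11 were above 0 in KO against WT and 11 in the vector comparison, with medians of 0.02 and 0.01. Without Fst vector M1, 9 of 19 were above 0 in the vector comparison, with a median of -0.01. Esrrg, an orphan nuclear receptor, had 7.10 ± 0.64 CPM in KO and 9.47 ± 0.49 CPM in WT, a log2 change of -0.40 ± 0.16 (adjusted p = 0.761, edgeR quasi-likelihood). Pprc1, a coactivator related to PGC-1, had 26.6 ± 1.48 CPM with the Fst vector and 35.0 ± 3.92 CPM with the GFP vector, a log2 change of -0.43 ± 0.14 (adjusted p = 0.386, edgeR quasi-likelihood), and -0.47 ± 0.15 without Fst vector M1. Of the 6 tested electron carriers and regulators such as Cycs and Atpif1, 4 were above 0 in KO against WT and 3 in the vector comparison, with or without Fst vector M1. Of 18 genes of the tricarboxylic acid cycle, 7 were above 0 in KO against WT, and 8 in the vector comparison or 6 without Fst vector M1. There Idh2, the mitochondrial NADP-dependent isocitrate dehydrogenase, had a log2 change of 0.39 ± 0.12 (adjusted p = 0.349, edgeR quasi-likelihood) over all 6 libraries, and of 0.32 ± 0.10 without Fst vector M1.

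Glycolysis genes leaned further above 0 than the members in KO against WT, with 15 of 17 above 0 and a median of 0.07, a difference that was not tested. Pfkp, the platelet form of phosphofructokinase, had 203 ± 20 CPM in KO and 180 ± 11.2 CPM in WT (SD, n = 3 each), a log2 change of 0.19 ± 0.07 (adjusted p = 0.690, edgeR quasi-likelihood). In the vector comparison 10 of 17 were above 0 with a median of 0.03, and without Fst vector M1 5 of 17 were, with a median of -0.06. Pfkl, the liver form, had 240 ± 42.0 CPM with the Fst vector and 419 ± 53.5 CPM with the GFP vector, a log2 change of -0.84 ± 0.17 (adjusted p = 0.158, edgeR quasi-likelihood), and it did not pass. Its log2 change without Fst vector M1 was -0.99 ± 0.15 (adjusted p = 0.236, edgeR quasi-likelihood).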

How the data were processed

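RNA sequencing libraries of the dentate gyrus were compared in 4 groups of 3. Values are raw counts of reads by Ensembl gene as the authors deposited them, per the file headers, in 1 table for KO and WT and 1 for the vector groups. Reads were placed on GRCm38 according to the labels (per the submitters' processing notes), while the sources used here give no aligner, counter, annotation or strand. Library totals were 8081824 to 11331337 counts, at which 3 counts are worth 0.265 to 0.371 CPM. No source states that libraries came from separate mice, so p-values reflect only how far these libraries spread, which may be technical.

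Each comparison was fitted over all genes of its table with edgeR 4.0.16 in R 4.3.3 (TMM scaling, filterByExpr, robust quasi-likelihood test, Benjamini-Hochberg adjustment, threshold 0.05), and members were read from that fit. The SE is the log2 change divided by the square root of its F value. DESeq2 1.42.0, other filters and scalings, further terms and each library left out were alternatives. The fits were also run on simulated counts drawn for each gene on its own. A shift of many genes together in a library, as in Fst vector M1, was not simulated, and the outcome is not given here. CPM used library totals and TPM the union exon length of GENCODE vM21, which gave coordinates and symbols for 52489 of 52636 IDs.

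Named genes were, in each comparison, the 5 members of smallest p in each direction, the smallest p in each direction within each complex, the highest and lowest level in each complex and the paralogous subunits, and the 2 of smallest p in each other list. Genes outside it, such as those without overlap between groups, were chosen after their values were seen. Members and lists were chosen with earlier results of these data known.

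Libraries of the vector groups that share a name deviated together from their group means (correlations of 0.325 for M1, 0.138 for M2 and 0.390 for F), so they were also fitted as pairs. This pairing comes from the data, and the differently named Fst vector M2 and GFP vector M1 had 0.119.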

Additional observations from a re-analysis of the deposited data

Results flagged for a closer look

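Ndufb1-ps (ENSMUSG00000113902), which the annotation lists as a long noncoding RNA from a bidirectional promoter and which therefore is not a member, had 3604 counts over the 12 libraries, a signal outside the genes compared. It had 34.2, 27.8 and 30.8 CPM in KO, against 23.8, 17.6 and 24.2 CPM in WT, without overlap. The log2 change of 0.51 ± 0.11 did not pass (edgeR quasi-likelihood, adjusted p = 0.118). It averaged 34.0 ± 1.82 CPM with the Fst vector and 37.1 ± 2.79 CPM with the GFP vector (SD, n = 3 each), a log2 change of -0.16 ± 0.13.

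Ndufb4c, listed as a processed pseudogene, had 177 counts over the 12 libraries. It averaged 1.93 ± 0.38 CPM in KO and 2.14 ± 0.73 CPM in WT, and 1.28 ± 0.27 CPM with the Fst vector and 0.665 ± 0.079 CPM with the GFP vector, where the log2 change was 0.90 ± 0.41 (edgeR quasi-likelihood, adjusted p = 0.537).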

How the results depend on the processing

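The count of members called was 0 under every alternative run. In KO against WT, all genes called numbered 4, against 46 without a filter, 24 with at least 10 counts, 19 with the replicate block, 30 with sex and 1 in the fit of 12 libraries. The 8 members higher at unadjusted p under 0.05 were 4 in the fit of 12 libraries, and 8 with the replicate block, where the median was 0.023. KO and WT libraries that share a name had correlations of 0.061, 0.130 and -0.081. These lay within the range of differently named ones, -0.197 to 0.178. In the vector comparison, all genes called numbered 12, against 250 with DESeq2, 230 without a filter, 28 with at least 10 counts, 150 with the replicate block, 132 with sex, 7 with the ribosomal RNA share and 412 in the fit of 12 libraries. The 1 member higher at unadjusted p was 3 without a filter, 2 with at least 10 counts, 2 with the block, 4 with the ribosomal RNA share and 2 in the fit of 12 libraries. Shares of all genes at unadjusted p are not given for these alternatives, so these counts of members have no background beside them.

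With each library left out in turn, genes called ranged over 2 to 17 in KO against WT, 1 to 29 in the vector comparison and 13 to 183 for the difference of effects. Members higher at unadjusted p ranged over 6 to 11, 0 to 2 and 0 to 2 in that order, and members lower over 0 to 1, 0 to 5 and 1 to 14. Among these fits, shares of all genes are given above only without Fst vector M1, so the other counts have no background beside them. The members' medians ranged over 0.016 to 0.058, -0.075 to 0.149 and -0.104 to 0.121. Without Fst vector M1 the median turned to -0.075 in the vector comparison and to -0.104 for the difference, and Uqcr10 to -0.032, whose range was up to 0.26. Without WT F1, Sdhb turned to -0.0054 in KO against WT, with up to 0.073 when another library was left out. The causes were not tested. Low counts limit Cox7a1, Cox7b2 and Cox8b.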
